A study of Mus musculus with 6 samples.

Results

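The glucocorticoid receptor gene, the gene of the enzyme that activates its ligand, and 8 genes known as receptor targets in muscle were followed in leg muscles of control mice and of mice carrying the C26 tumor. The 10 genes, Nr3c1, Hsd11b1, Fkbp5, Tsc22d3, Klf9, Klf15, Sgk1, Dusp1, Zbtb16 and Errfi1, were taken by symbol from an array table of 21212 probe sets, and each of the 10 had 1 probe set. All were above background in both groups, where background was 3.82 on the log2 scale, the 95th percentile of 1259 probe sets of olfactory and vomeronasal receptors. The mice were male CDF1 animals, 8 weeks old at the start and housed singly. Control mice received PBS and matrigel under the skin of both flanks, whereas C26 mice received C26 adenocarcinoma cells in the same carrier, and gastrocnemius and plantaris muscles were taken 25 days later. RNA of 3 control and 4 C26 mice was combined into 3 pools per group (control replicates 1, 2 and 3, C26 replicates 1, 3 and 4), with 1 array per pool. The labels do not tie mice to pools, so that pools of a group may share animals and the p-values measure only the spread between pools.

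Glucocorticoids enter cells freely and bind the receptor, which waits in the cytoplasm in a complex with Hsp90 and cochaperones. The bound receptor moves to the nucleus, binds short palindromic DNA elements as a dimer and raises or lowers transcription of its targets. In skeletal muscle, glucocorticoids are known for promoting protein breakdown, amino acid release and a switch from glucose to fat as fuel, and long exposure causes atrophy of fast fibers.

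The arrays held muscle RNA in both groups. Muscle fiber transcripts such as Acta1, Ckm and Myh4 had group means between 12.26 and 13.05 (log2 RMA value, 3 pools each) and did not pass the test. Correlations were 0.994 to 0.996 between arrays of a group and 0.976 to 0.981 between groups. The words rose and fell are used where limma gave an adjusted p of at most 0.05 over all 21212 probe sets and the change was at least 1.5-fold. By this rule 5.94% of all probe sets rose and 4.95% fell, and 30.1% passed the adjusted p without the fold minimum. With each array centred on its median, 1534 probe sets rose and 839 fell. Rises then made up 64.6% of the calls, compared with 54.6% on the values as deposited.

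In C26 muscle 7 of the 10 genes rose, against the 5.94% of all probe sets. The 10 genes were chosen with earlier results of these data known, so their counts are descriptive. Fkbp5 rose 6.17-fold, Klf15 3.79-fold and Zbtb16 2.58-fold, and Errfi1, Klf9, Hsd11b1 and Tsc22d3 rose by 1.58-fold to 1.98-fold. The median log2 fold change of the 10 was 0.67, beside -0.05 over all probe sets. No member fell by the rule (0 of 10 by limma, against 4.95% of all probe sets), and Nr3c1 and Dusp1 were lower by less than 1.5-fold. Without the fold minimum 9 of the 10 passed the adjusted p, against 30.1% of all probe sets. Of the 9, 7 were higher and 2 lower, and the 2 lower ones, Nr3c1 and Dusp1, no longer passed in some other tests. For 9 of the 10 the 2 groups had no overlapping values, as did 43.9% of all probe sets. Both t-tests, with equal and with unequal variances, called 7 members as well, and 0 of them lower.

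**Figure D1:**
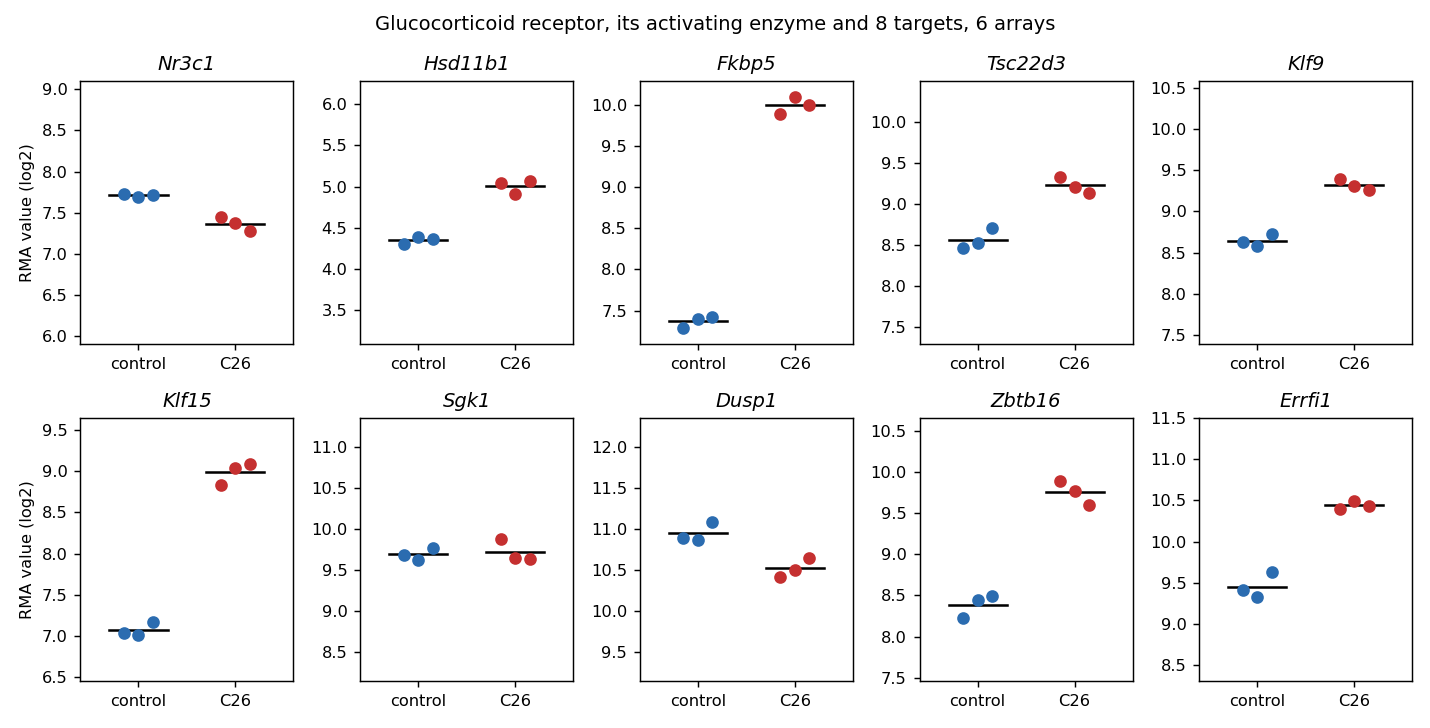
Log2 RMA values (vertical axis) of the 10 genes. Blue points are the 3 control pools, red points the 3 C26 pools and black lines the group means. Each panel spans the same 3.2 log2 units, and within a group the points stand in order of replicate number. The groups lie apart in every panel except that of Sgk1, by 2.47 for Fkbp5 and by 0.21 for Dusp1.

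The receptor gene itself was slightly lower in C26 muscle. Nr3c1 had log2 values of 7.73, 7.69 and 7.71 in control replicates 1, 2 and 3, and of 7.45, 7.37 and 7.27 in C26 replicates 1, 3 and 4. Each C26 pool lay under each control pool, and the control pools were closer to each other (SD 0.02) than the C26 pools (SD 0.09). The log2 fold change was -0.35 (SE 0.08, 95% interval -0.52 to -0.17, adjusted p = 0.00952 from limma), a 1.27-fold difference that did not reach the 1.5-fold minimum. The adjusted p of Nr3c1 was 0.0872 in the t-test with unequal variances. It was 0.128 in limma with a replicate block, which compares only the arrays numbered 1 and 3 in both groups. Nr3c2, the mineralocorticoid receptor gene, whose product also binds corticosterone, fell from 6.16 ± 0.18 to 5.12 ± 0.12 (mean log2 value ± SD over 3 pools). The log2 fold change was -1.04 (SE 0.11, limma's adjusted p = 0.000182).

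Hsd11b1, which encodes the enzyme that turns inert 11-dehydrocorticosterone into corticosterone inside cells, rose. Its log2 values were 4.30, 4.39 and 4.37 in control replicates 1, 2 and 3, and 5.05, 4.92 and 5.07 in C26 replicates 1, 3 and 4. The groups were separated by 0.53, and the rise was 0.66 in log2 (SE 0.08, adjusted p = 0.000363 from limma). The signal was the closest to background among the members, and Hsd11b1 was not tested when probe sets under the median level were left out. H6pd, which supplies the NADPH for this reaction, differed by 0.56 in log2 (SE 0.10, adjusted p = 0.00263), under the fold minimum. Hsd11b2, the opposing enzyme that inactivates corticosterone, had values of 4.23 ± 0.05 in control and 4.29 ± 0.11 in C26 muscle, a difference of 0.05 (adjusted p = 0.697). Of 10 measured genes of corticosteroid supply, transport and related receptors, 1 rose, 1 fell and 8 did not pass. Among all probe sets 5.94% rose and 4.95% fell. The median log2 fold change of the 10 was 0.03, and 5 of them were above background. The one that rose was Abcb1b, which encodes a P-glycoprotein efflux pump that can carry corticosteroids (1.31, SE 0.10, adjusted p = 3.91e-05). After median centring of each array, without control replicate 2 and without C26 replicate 4, 2 genes of this list rose. Serpina6, Cyp11b1 and Mc2r, genes of the plasma corticosteroid carrier, of adrenal synthesis and of the corticotropin receptor, stayed under the background in both groups.

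Fkbp5 was the member with the largest change. It encodes FKBP51, a cochaperone that lowers the affinity of the receptor for hormone and is itself a classic receptor target. Its log2 values of 7.29, 7.40 and 7.42 in control replicates 1, 2 and 3 compared with 9.90, 10.09 and 9.998 in C26 replicates 1, 3 and 4. The lowest C26 pool exceeded the highest control pool by 2.47, and the log2 fold change was 2.63 (SE 0.08, 95% interval 2.43 to 2.82, adjusted p = 8.66e-07 from limma). Only 15 of the 21212 probe sets had a larger log2 fold change. Of 14 measured genes of the receptor's chaperone complex, 0 were called by limma and by both t-tests. Over all probe sets 5.94% rose and 4.95% fell by limma. Without the fold minimum 6 of the 14 passed limma's adjusted p, 2 higher and 4 lower, beside 30.1% of all probe sets. An unadjusted limma p under 0.05 was found for 7 of the 14, as for 39.9% of all probe sets. The median log2 fold change of the 14 was 0.05. Fkbp4, whose product FKBP52 competes with FKBP51 for the complex, differed by -0.29 in log2 (SE 0.07, adjusted p = 0.0148), and Ptges3, the gene of the p23 cochaperone, one of 0.54 (SE 0.10, adjusted p = 0.00326). After median centring of each array, without control replicate 2 and without C26 replicate 1, 1 gene of the complex rose.

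Both Krüppel-like factor genes of the set rose. Klf15 encodes a transcription factor that drives amino acid breakdown in muscle. Its log2 values were 7.04, 7.01 and 7.17 in control replicates 1, 2 and 3, and 8.84, 9.04 and 9.10 in C26 replicates 1, 3 and 4. No pool of one group came within 1.67 of the other group, and the log2 fold change was 1.92 (SE 0.09, adjusted p = 4.56e-06 from limma). Klf9, a factor that follows glucocorticoids in many tissues, had log2 values of 8.63, 8.57 and 8.73 in control replicates 1, 2 and 3, and of 9.40, 9.30 and 9.26 in C26 replicates 1, 3 and 4. The groups did not overlap, and the log2 fold change of Klf9 was 0.68 (SE 0.08, adjusted p = 0.000353). The 95% interval was 1.71 to 2.13 for Klf15 and 0.50 to 0.86 for Klf9. Of 9 measured genes known as Klf15 targets, 3 rose (33.3%, beside 5.94% of all probe sets) and 6 did not pass. Their median was 0.41. Prodh, the gene of the first enzyme of proline breakdown, rose by 1.07 (SE 0.12, adjusted p = 0.000336), and the ubiquitin ligase genes Fbxo32 and Trim63 rose by 2.12 and 2.86. Fbxo32 and Trim63 are among the genes that the study names for these arrays, so they are not independent evidence. Bcat2, which starts the breakdown of branched-chain amino acids, differed by -0.16 in log2 (SE 0.11, adjusted p = 0.305), and Aldh6a1, a later enzyme of valine breakdown, one of 0.55 (SE 0.09, adjusted p = 0.00231).

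Zbtb16 and Errfi1 rose by 2.58-fold and 1.98-fold. Zbtb16 encodes PLZF, a zinc finger transcription factor that glucocorticoids and progesterone induce. It had log2 values of 8.23, 8.45 and 8.50 in control replicates 1, 2 and 3, and of 9.90, 9.77 and 9.60 in C26 replicates 1, 3 and 4. The pools within a group spread over up to 0.29, and the gap between the groups was 1.11. The log2 fold change of Zbtb16 was 1.37 (SE 0.11, adjusted p = 4.13e-05 from limma). Errfi1 encodes MIG6, a feedback inhibitor of the epidermal growth factor receptor. It had log2 values of 9.41, 9.32 and 9.63 in control replicates 1, 2 and 3, and of 10.40, 10.49 and 10.43 in C26 replicates 1, 3 and 4. Control replicate 3 was the highest control pool and still lay 0.77 under the lowest C26 pool. The log2 fold change of Errfi1 was 0.99 (SE 0.09, adjusted p = 0.000123), just under 2-fold.

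Tsc22d3 rose by the smallest margin of the 7. It encodes GILZ, a leucine zipper protein that carries part of the anti-inflammatory action of glucocorticoids. Its log2 values were 8.46, 8.53 and 8.71 in control replicates 1, 2 and 3, and 9.33, 9.21 and 9.14 in C26 replicates 1, 3 and 4. The groups lay 0.43 apart, and the log2 fold change was 0.66 (SE 0.09, adjusted p = 0.000947 from limma). With quantile normalization of the deposited values it was 0.57, under the 1.5-fold minimum, so that 6 members rose. The 95% intervals of Tsc22d3 (0.45 to 0.87), Hsd11b1 (0.48 to 0.84) and Klf9 (0.50 to 0.86) covered nearly the same range and reached below the 1.5-fold line.

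Sgk1 and Dusp1, which glucocorticoids are known to induce in several tissues, did not rise. Sgk1 encodes a kinase related to AKT that regulates ion transport and cell survival. It had log2 values of 9.68, 9.62 and 9.77 in control replicates 1, 2 and 3, and of 9.88, 9.64 and 9.63 in C26 replicates 1, 3 and 4. C26 replicate 1 was the highest of the 6 pools and the other C26 pools lay within the control range. The log2 fold change was 0.03 (SE 0.09, adjusted p = 0.866 from limma) with a 95% interval of -0.19 to 0.24, so that a change of 1.5-fold in either direction lay outside the interval. Dusp1 encodes a phosphatase that switches off p38 and JNK kinases. Its log2 values were 10.89, 10.86 and 11.09 in control replicates 1, 2 and 3, and 10.42, 10.49 and 10.65 in C26 replicates 1, 3 and 4. Each C26 pool was under each control pool, by at least 0.21, and the log2 fold change was -0.43 (SE 0.10, 95% interval -0.65 to -0.21, adjusted p = 0.00961), short of the fold minimum. The adjusted p of Dusp1 was 0.053 in the t-test with equal variances and 0.0717 in that with unequal variances.

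**Figure D2:**
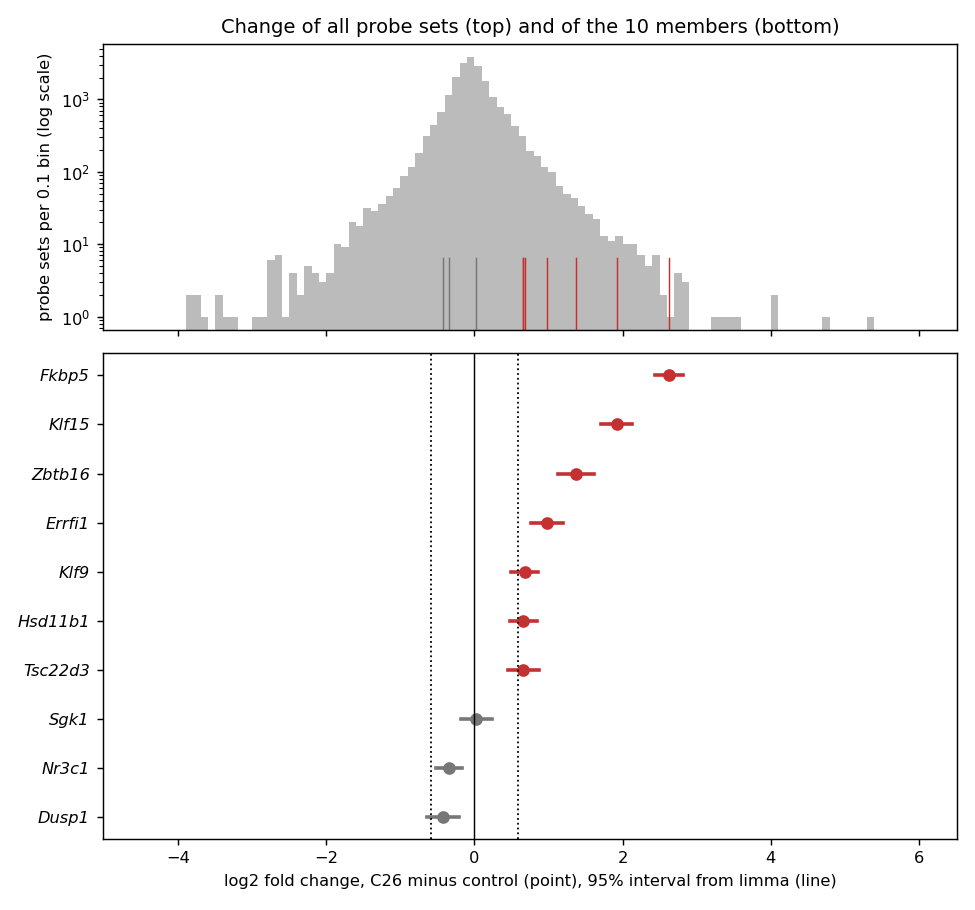
Log2 fold change (C26 minus control, horizontal axis). The upper panel counts all probe sets in bins of 0.1 on a log scale, with short vertical lines at the 10 genes, and the lower panel gives each gene (point) with its 95% interval from limma (line), red for genes that rose and gray for those that did not pass. Dotted lines mark 1.5-fold. Fkbp5 (2.63) and Klf15 (1.92) lie in the far right tail, and Sgk1 (0.03), Nr3c1 (-0.35) and Dusp1 (-0.43) lie between the dotted lines.

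Promoter windows from RefSeq (GRCm38.p6), from 250 bases before to 50 bases after each start site, were searched for the DNA element that the receptor binds. The table held 16 windows for 8 of the 10 members. It has no entry for Nr3c1 and Zbtb16. The element was searched on both strands as its full form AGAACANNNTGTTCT, as the relaxed form GNACANNNTGTNC, which every full form also matches, and as the half-site AGAACA, of which every full form holds 2. The full form occurred in 3 of 32851 windows, in 0.0111% of all genes in the table, the relaxed form in 0.537% and the half-site in 21.3%. Among the members the full form was found in 1 gene, Sgk1, which did not change. It lay in 1 of the 6 Sgk1 windows, with its centre 182 bases before that start. Half-sites were found in 3 Sgk1 windows and 1 of 3 Tsc22d3 windows. The other 12 windows held none, including those of Fkbp5 and Klf15, the members that rose most. The 250 bases before the start are shown for the Sgk1 window with the full element, the Tsc22d3 window with a half-site and the Fkbp5 window with none, each on the strand of the gene and with half-sites in capitals. They lie at chr10:21993640-21993889 (plus strand), chrX:140600523-140600772 (minus strand) and chr17:28486150-28486399 (minus strand). A match in these letters is a description and not a binding site, and elements outside the windows were not searched.
Sgk1: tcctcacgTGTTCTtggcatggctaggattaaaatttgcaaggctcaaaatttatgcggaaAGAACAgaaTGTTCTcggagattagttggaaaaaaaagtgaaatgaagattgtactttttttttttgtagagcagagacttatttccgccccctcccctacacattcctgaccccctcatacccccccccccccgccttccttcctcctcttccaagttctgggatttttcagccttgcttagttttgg
Tsc22d3: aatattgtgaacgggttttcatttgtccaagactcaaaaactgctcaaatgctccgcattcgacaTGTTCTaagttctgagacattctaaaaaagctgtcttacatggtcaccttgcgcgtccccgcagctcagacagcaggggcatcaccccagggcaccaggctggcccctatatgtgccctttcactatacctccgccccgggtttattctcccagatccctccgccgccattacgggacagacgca
Fkbp5: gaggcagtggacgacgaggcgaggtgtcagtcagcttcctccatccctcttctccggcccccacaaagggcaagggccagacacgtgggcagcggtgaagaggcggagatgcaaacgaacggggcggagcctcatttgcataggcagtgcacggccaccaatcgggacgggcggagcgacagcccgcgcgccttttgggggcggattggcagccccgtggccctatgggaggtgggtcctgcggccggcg

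In a chosen list of other genes known to respond to glucocorticoids, most rose. Of 31 such genes measured 25 rose (80.6%, beside 5.94% of all probe sets), 1 fell (3.23%, beside 4.95%) and 5 did not pass. Their median log2 fold change was 1.37. The list was put together with results of these arrays known, and 5 of its genes are named by the study for these arrays, so the count is not independent evidence. The largest changes were in Lcn2 (5.40, SE 0.14), which encodes lipocalin 2, Mt2 (4.04, SE 0.18) and Mt1 (3.26, SE 0.16), the metallothionein genes, and Sesn1 (3.37, SE 0.10), which encodes a brake on mTOR, with adjusted p-values of at most 5.03e-06 from limma. A few further genes are named for their roles, after their values were seen. Rgs2, a brake on G protein signaling, rose from 4.73 ± 0.21 to 7.52 ± 0.34 (mean log2 value ± SD over 3 pools), and Cdkn1a, the gene of the cell cycle inhibitor p21, rose from 6.78 ± 0.25 to 9.59 ± 0.31. Glul, the glutamine synthetase gene, rose by 1.78 (SE 0.12, adjusted p = 2.14e-05), and Pdk4, whose product limits glucose oxidation, by 1.35 (SE 0.19, adjusted p = 0.00102). Per1, a clock gene, rose by 0.71 (SE 0.11, adjusted p = 0.00148), and Mstn, the myostatin gene, by 0.63 (SE 0.08, adjusted p = 0.000688). The gene that fell was Bcl6, a transcriptional repressor (-1.77, SE 0.10, adjusted p = 7.6e-06). Cited2 and Slc38a2 had log2 fold changes of -0.16 and 0.04 and did not pass.

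Promoter windows were found for 28 of these genes. The relaxed element was present in 3 of the 28 (10.7%), against 0.485% of the 15058 genes of the array with a window, and the half-site in 3 (10.7%), against 18%. The shares are a description, since the list holds genes already known as receptor targets. The elements lay in Trim63 (chr4:134314912-134314924), with its centre 202 bases before the start, in Map3k6 (chr4:133240637-133240649), with its centre 175 bases before it, and in Mt1 (chr8:94178995-94179007), 88 bases before it, all on the plus strand. They are shown beside the relaxed match within the full Sgk1 element (chr10:21993702-21993714), with the 3 spacer bases in lower case. Trim63 rose by 2.86 (SE 0.13, adjusted p = 3.94e-06 from limma) and Map3k6, a stress kinase gene, by 2.07 (SE 0.13, adjusted p = 1.68e-05).
Trim63: GAACAgtcTGTTC
Map3k6: GCACAggcTGTTC
Mt1: GGACAtgaTGTTC
Sgk1: GAACAgaaTGTTC

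Of 17 measured coregulators of the receptor 3 rose (17.6%, beside 5.94% of all probe sets) and 14 did not pass. Their median log2 fold change was 0.07. Cry2, a clock repressor that also binds the receptor, rose from 6.96 ± 0.23 to 8.80 ± 0.11 (mean log2 value ± SD over 3 pools; 1.84, SE 0.12, adjusted p = 2e-05 from limma), whereas Cry1 differed by 0.07 in log2 (SE 0.07, adjusted p = 0.514). Crtc2, a coactivator of CREB, rose by 0.74 (SE 0.11, adjusted p = 0.00112), and Tbl1xr1, a subunit of the NCoR corepressor complex, by 0.64 (SE 0.08, adjusted p = 0.00042). Ncoa1, the gene of the steroid receptor coactivator SRC-1, differed by -0.30 in log2 (SE 0.07, adjusted p = 0.0151), under the fold minimum.

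Of 36 measured genes of the TSC22, SGK, dual-specificity phosphatase, Krüppel-like factor, FKBP and ZBTB families 2 rose (5.56%, beside 5.94% of all probe sets), 5 fell (13.9%, beside 4.95%) and 29 did not pass. Their median log2 fold change was -0.04. No relative of Errfi1 is on this list. Klf10 rose by 1.35 (SE 0.09, adjusted p = 2.04e-05 from limma) and Klf6 by 0.80 (SE 0.11, adjusted p = 0.00105), and Klf12 fell by 0.68 (SE 0.08). Tsc22d4 fell from 8.34 ± 0.14 to 7.36 ± 0.09 (mean log2 value ± SD over 3 pools; adjusted p = 0.000122), the opposite direction to Tsc22d3. Dusp10, which encodes another phosphatase of p38 and JNK, fell from 7.42 ± 0.34 to 5.24 ± 0.11 (-2.19, SE 0.16, adjusted p = 2.96e-05), the largest change of the list. Fkbp9 and Fkbp14, chaperones of the endoplasmic reticulum, fell by 0.68 and 0.61. Sgk2 and Sgk3 had log2 fold changes of -0.10 and 0.14 and did not pass.

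Among 15 measured partners of the target proteins 3 rose (20.0%, beside 5.94% of all probe sets) and 12 did not pass. Their median log2 fold change was 0.20. Akt1, the gene of a kinase related to SGK1, rose from 8.58 ± 0.05 to 9.90 ± 0.27 (mean log2 value ± SD over 3 pools, log2 fold change 1.32, SE 0.13, adjusted p = 0.000133 from limma). Nedd4l, a ubiquitin ligase that SGK1 phosphorylates, rose by 0.78 (SE 0.08, adjusted p = 0.000156), and Tsc1 by 0.59 (SE 0.08, adjusted p = 0.00101). A test with unequal variances called 1 of the 15. Egfr, whose product MIG6 inhibits, differed by 0.16 in log2 (SE 0.07, adjusted p = 0.139), and Mapk14, the gene of the p38 kinase that Dusp1 acts on, one of -0.50 (SE 0.11, adjusted p = 0.00919), under the fold minimum.

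**Figure D3:**
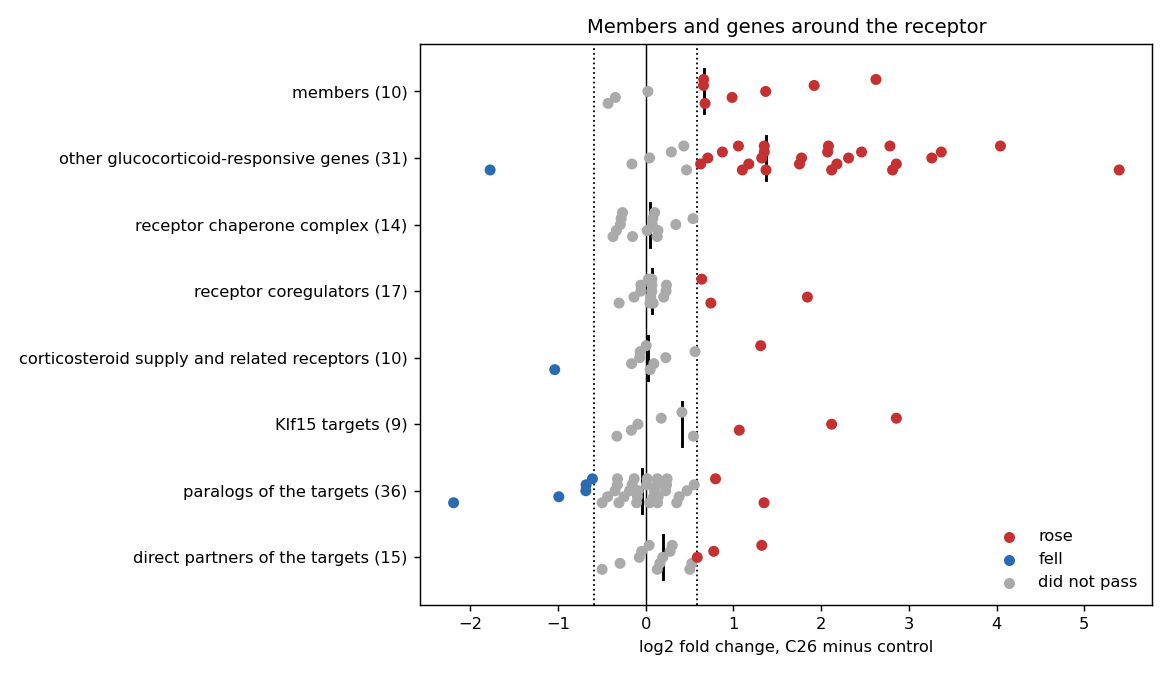
Log2 fold change (C26 minus control, horizontal axis) of each measured gene (point) in the 10 members and in 7 lists of genes around the receptor, with the number measured in parentheses, red for genes that rose, blue for genes that fell and gray for those that did not pass. Black bars are list medians and dotted lines mark 1.5-fold. The median lies at 1.37 for the other responsive genes and between -0.04 and 0.41 for the remaining 6 lists.

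The control pools differed in the targets as well. Each of the 8 targets had its highest control value in replicate 3, as had 22 of the 31 other responsive genes (71.0%) and 33.9% of all probe sets. Without control replicate 3, 7 members rose. The changed members did not vary alike between the C26 pools. Relative to the control mean, Tsc22d3, Klf9 and Zbtb16 were highest in C26 replicate 1 (0.76, 0.75 and 1.51 on the log2 scale) and lowest in replicate 4 (0.57, 0.62 and 1.22). Fkbp5, Klf15 and Errfi1 were lowest in replicate 1 (2.52, 1.77 and 0.94). Hsd11b1 was highest in replicate 4 (0.72) and lowest in replicate 3 (0.57). The differences between C26 pools were smaller than the change itself, but not small for members near 1.5-fold, such as Tsc22d3 (log2 fold change 0.66). The genes whose values were most like those of Nr3c1 over the 6 arrays were Mfn2, Jph1, Jarid2, Sox12 and Tmem64 (Pearson r 0.998 to 0.999), and those most like Fkbp5 were Slc39a14, Xbp1, Ctdp1, Itgam and Sympk (r 0.999 to 1.000). The 6 arrays form 2 separate groups, and 102 of 13346 named genes above background correlated with Nr3c1, and 296 with Fkbp5, at over 0.99.

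Markers of some other cell types changed as well, and the direction differed between types. Over all probe sets 5.94% rose and 4.95% fell. Of 9 measured neutrophil markers 7 rose. S100a9 and Csf3r rose by 1.25 and 1.55 in log2, and S100a8, Cxcr2, Retnlg, Fpr2 and Il1r2 rose from means under background in control muscle, so that their changes are not exact. The list's summed linear signal was 103 to 122 in the control pools and 292 to 350 in the C26 pools, with the defining marker Ly6g under background. Of 11 macrophage markers 6 rose, Itgam by 1.71, Cd163 by 1.28 and C1qb, Mrc1, C1qa and C1qc by 0.66 to 0.98, with a summed signal of 894 to 1002 in control and 1456 to 1515 in C26 pools, while the defining markers Adgre1 and Csf1r had log2 fold changes of 0.00 and 0.02. Of 9 adipocyte markers 3 fell by limma and 1 by each t-test, with Plin1 at -1.51, Adipoq at -0.59 and Lep under background in C26 muscle, and with summed signals of 1141 to 1204 and 965 to 1120, and Fabp4 had a log2 fold change of -0.06 (adjusted p = 0.648 from limma). Of 10 fibroblast markers 5 fell, Col1a1 by 2.61, Col1a2 by 2.29, Col3a1 by 1.17, Dpt by 0.79 and Cd34 by 0.66, with summed signals of 9589 to 10642 and 5657 to 6424, while Pdgfra had one of 0.50 and did not reach the fold minimum. Of 10 endothelial markers Vwf rose by 0.69 and Kdr fell by 1.21, with summed signals of 1768 to 1864 in control and 1767 to 1943 in C26 pools, and of 9 lymphocyte markers Thy1 fell by 1.15, with 3 of the 9 above background. Of 12 muscle fiber markers 2 fell, Myl1 and Mylpf, and 10 did not pass, and of 7 slow-fiber markers Myl3 fell and 6 did not pass, with summed signals of 55656 to 57538 against 49258 to 51082 and of 4361 to 4601 against 3579 to 3887. In RNA of whole muscle a change in the number of cells of a type and a change in RNA per cell cannot be told apart. The part of other cell types in the changes of the 10 genes was not tested. Hsd11b1, which fat cells, fibroblasts and macrophages are known to express, rose while the adipocyte and fibroblast sums were lower and the macrophage sum was higher.

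**Figure D4:**
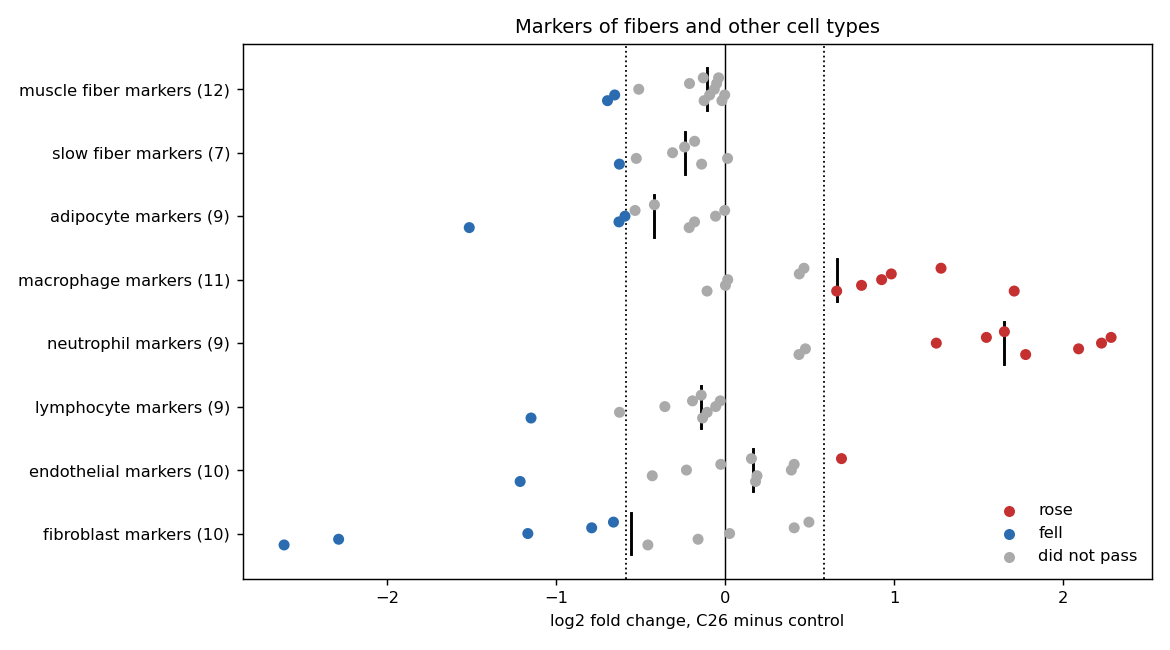
Log2 fold change (C26 minus control, horizontal axis) of markers of muscle fibers, of slow fibers and of 6 other cell types (points, number measured in parentheses), red for genes that rose, blue for genes that fell and gray for those that did not pass. Black bars are list medians and dotted lines mark 1.5-fold. Neutrophil (median 1.65) and macrophage (0.66) markers lie to the right, and adipocyte (-0.42) and fibroblast (-0.56) markers to the left.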

How the data were processed

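Whole-transcript Affymetrix Mouse Gene 1.0 ST arrays measured muscle RNA of 3 control and 3 C26 pools, grouped by the labels, with RNA integrity numbers of at least 8.0. RMA gave the log2 values that the authors deposited, run in GenePattern and the Brainarray custom CDF, version 13, which corrects background, normalizes by quantiles over the arrays and summarizes probes per gene. No source used here names the build of the probe annotation. RMA tends to compress changes of weakly expressed genes. Array medians were 4.93 to 5.02. The number of arrays limits the precision.

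Of 21212 probe sets 18782 carry 1 unshared symbol of the platform annotation, 18775 symbols were matched to RefSeq by gene ID, and 2420 probe sets are unnamed. C26 was set against control by limma's moderated test (version 3.58.1, R 4.3.3, two-sided, with 4.52 prior degrees of freedom) and Benjamini-Hochberg adjustment over all probe sets. The thresholds are those of the study's methods. The study's methods name a parametric t-test without stating the variances, so t-tests with equal and with unequal variances were alternatives, beside other limma settings, thresholds, scalings and filters, a replicate block, and leaving out each array. Motifs were searched in Python 3.11.15 by exact matching.

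The 10 members and the gene lists were chosen with earlier results of these data known, so their counts are descriptive. Of 140 genes in the 7 lists around the receptor 130 had a named probe set, and the others were not analysed here. The responsive and the Klf15 target lists share Fbxo32 and Trim63, and Mertk is on the responsive and the macrophage list. Up to 4 called genes with the largest change of each list are named by rule, with up to 2 that did not pass, and of each marker list those called and up to 3 with the highest mean. Genes named beyond this rule were chosen after their values were seen. Likeness was Pearson's r over the 6 arrays.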

Additional observations from a re-analysis of the deposited data

How the results depend on the processing

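The count of 7 members that rose was 6 with quantile normalization, where Tsc22d3 missed the fold minimum, 3 at a minimum of 2-fold, 6 when dim probe sets were left out and Hsd11b1 with them, and 7 when any 1 array was left out. The count of members that fell was 2 without a fold minimum (Nr3c1 and Dusp1) and 0 in every other alternative run. The sign of Sgk1, which did not pass, turned with quantile normalization (-0.0211) and without control replicate 2 (-0.0084), and ranged from -0.0552 (without C26 replicate 1) to 0.0691 when 1 array was left out. In the 7 lists around the receptor, counted once per gene, 35 of 130 genes rose and 7 fell. Rises ranged from 25 to 51 over all alternatives and falls were 21 without a fold minimum and 3 at 2-fold. Over all probe sets 1261 rose and 1049 fell. These counts became 760 and 621 with unequal variances, 3041 and 3344 without a fold minimum, and 432 and 307 at 2-fold, and 1196 to 1391 and 992 to 1155 without single arrays. Control replicate 2 and C26 replicate 4 have no equally numbered array in the other group. The replicate block therefore compares only the arrays numbered 1 and 3. In that fit 7 members rose, with a log2 fold change of 2.64 for Fkbp5. The supply list had 2 rises instead of 1, and the relatives of the targets 3 falls instead of 5. Nr3c1 did not pass limma's adjusted p (0.128) there, with fewer arrays to test it. Replicate numbers 1 and 3 occur in both groups, but nothing ties them to shared animals, and deviations of equally numbered arrays correlated at -0.06 for both pairs. Scalings moved the median of all probe sets by less than 0.1.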

Other observations

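Among array genes with a promoter window, the half-site of the receptor element was present in 17.2% of 932 genes that rose, 15.6% of 742 that fell and 18.2% of 13384 that did not pass. The relaxed element was found in 10 of the genes that rose (1.07%), 5 of those that fell (0.674%) and 58 of those that did not pass (0.433%). Genes that rose had 1.24 windows on average, genes that fell 1.36 and the others 1.22, and the shares were not tested. Besides Sgk1 the full element occurred in the windows of Acnat2, which had a log2 fold change of 0.18 (adjusted p = 0.324 from limma), and Gm35041, which was not analysed here.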
